A study of Mus musculus with 36 samples.

Results

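The transcripts described here encode the nuclear-encoded subunits of the 5 oxidative phosphorylation complexes, measured in the liver of adult mice. They were chosen by gene name: every array probe set (the group of short probes that reads 1 transcript) was taken whose single platform gene symbol began with Ndufa, Ndufb, Ndufc, Ndufs, Ndufv, Uqcr, Cox4i, Cox5, Cox6, Cox7, Cox8 or Atp5, or was Sdha, Sdhb, Sdhc, Sdhd or Cyc1, and the Ndufaf assembly factors were left out. This gave 170 probe sets of 83 genes, of 45037 probe sets and 18193 singly named genes on the array. Complex I contributed 34 genes, complex II 4, complex III 9, complex IV 19 and complex V 17, with Ndufa4 and Ndufa4l2 counted in complex IV. Each gene was represented by its probe set with the highest mean log2 signal, and 80 members were bright enough to be tested among 13188 genes. The other 3, Ndufb4, Cox7b2 and Cox8b, lay below the filter on dim probe sets.

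Oxidative phosphorylation couples the oxidation of NADH and succinate to ATP synthesis in the inner mitochondrial membrane. Complexes I and II feed electrons to ubiquinone, complex III passes them to cytochrome c, complex IV passes them to oxygen, and complex V uses the resulting proton gradient to make ATP. Most subunits are encoded in the nucleus and a few core subunits in mitochondrial DNA, and hepatocytes, which carry out gluconeogenesis, urea synthesis and fatty acid oxidation, are rich in mitochondria.

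The study profiled livers of 5 mouse lines that carry neural tube defect mutations, each beside its control, on 36 arrays with 4 biological replicates in each of 9 groups. All mice were females of 6 to 8 weeks, fasted for 4 to 5 hours. Pax3Sp2H heterozygotes (group Pax3) and Apobtm1Unc heterozygotes (group Apob) were both set against the same C57BL/6J wild types (B6), so those comparisons share their control arrays. Lrp6Cd heterozygotes (Cd-Het) were set against wild types of the same stock (Cd-WT), and Vangl2Lp heterozygotes (Lp-Het) against theirs (Lp-WT). The ct mice (Ct) came from a random-bred closed colony whose animals were all taken to be ct/ct homozygotes, and their control was CBA/CaJ (CBA), so stock and allele cannot be told apart there. The labels class the Pax3 and Lrp6 mutants as responsive to dietary folic acid and the other mutants as resistant. The labels do not say whether any mice were littermates.

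The deposited values are MAS5 signals, a linear brightness scaled to the same trimmed mean of 500 on every array, and differences below are on the scale of log2(signal + 23), mutant minus control, with the standard error (SE) of the limma fit. A gene was called at a limma adjusted p (Benjamini-Hochberg over all genes tested) below 0.05. All 10 measured hepatocyte markers passed the filter in these livers, with summed signals of 308600 to 671500. RNA integrity, read as GAPDH signal at the 3′ end over that at the 5′ end, was 0.729 to 0.956 on 34 arrays, 1.72 on Ct replicate 3 and 52.5 on CBA replicate 4. The same ratio for actin varied more on those 34 arrays, from 1.63 on Apob replicate 4 to 2.93 on Lp-Het replicate 4. It was 1.78 on Pax3 replicate 3, 2.46 on Lp-Het replicate 2, 2.65 on Ct replicate 2 and 2.81 on Lp-WT replicate 4. Ct replicate 3 read 3.71 and CBA replicate 4 read 31.0. The part of the actin ratio in the members' differences was not tested. In whole liver, fewer cells of a type and less RNA per cell cannot be told apart. Of the tested members, 71 lay among the 1319 brightest genes (the brightest 10%). The 9 that did not were Cox4i2, Cox6a2, Cox6b2, Cox7a1, Cox7c, Cox8c, Ndufa4l2, Ndufb1 and Ndufs1.

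The control groups were of different mouse stocks, so any difference called among them lay between stocks by design. The called differences of Ndufv1 and Ndufa10 as deposited were present in mutants and controls of the Lrp6Cd stock. The mutant groups were compared by a separate F test, added after the data were seen, which called 33 of 80 members as deposited. Whether those differences follow stock or mutation was not tested. An F test in limma across the 4 control groups called 3 of 80 members, beside 10.7% of all genes tested. They were Ndufv1, the flavoprotein of complex I that binds NADH, Ndufa10, a supernumerary complex I subunit of the nucleoside kinase family, and Ndufb6, a supernumerary subunit of the complex I membrane arm. Ndufs8, an iron-sulfur core subunit of complex I encoded 99981 bases from Ndufv1 on chromosome 19 with 8 protein-coding genes between, followed with an adjusted p of 0.0559.

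Ndufv1 and Ndufa10 were called across the controls and read low and high in the Lrp6Cd stock. Ndufs8 was high there beside B6 but was not called and overlapped Lp-WT. Uqcr10 was the member with the largest single probe set difference. Windows from 250 bases before to 50 bases after the annotated start are given for these 4 genes, so that their sequences stand beside their values. They are the RefSeq reference (GRCm38.p6, C57BL/6J), printed 5′ to 3′ on the gene's strand, and not the alleles of the other stocks. Capitals mark the letters CCGGAAG, an ETS-type motif, on either strand. The letters GCATGCGC, an NRF1-type motif, were searched on both strands and had no match in these 4 windows.
Ndufv1, chr19:4012706-4013005, minus strand: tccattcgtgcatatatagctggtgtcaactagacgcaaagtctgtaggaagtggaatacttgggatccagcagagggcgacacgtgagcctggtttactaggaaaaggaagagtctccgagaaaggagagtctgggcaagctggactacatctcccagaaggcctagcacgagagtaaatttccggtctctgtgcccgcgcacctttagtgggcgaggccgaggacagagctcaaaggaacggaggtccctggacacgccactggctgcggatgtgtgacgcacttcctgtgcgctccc
Ndufs8, chr19:3912725-3913024, minus strand: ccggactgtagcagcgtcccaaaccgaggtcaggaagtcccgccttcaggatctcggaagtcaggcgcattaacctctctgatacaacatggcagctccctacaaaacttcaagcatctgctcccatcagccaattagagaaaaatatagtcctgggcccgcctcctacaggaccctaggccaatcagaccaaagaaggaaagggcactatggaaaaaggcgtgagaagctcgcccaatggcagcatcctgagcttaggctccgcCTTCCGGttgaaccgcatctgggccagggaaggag
Ndufa10, chr1:92473709-92474008, minus strand: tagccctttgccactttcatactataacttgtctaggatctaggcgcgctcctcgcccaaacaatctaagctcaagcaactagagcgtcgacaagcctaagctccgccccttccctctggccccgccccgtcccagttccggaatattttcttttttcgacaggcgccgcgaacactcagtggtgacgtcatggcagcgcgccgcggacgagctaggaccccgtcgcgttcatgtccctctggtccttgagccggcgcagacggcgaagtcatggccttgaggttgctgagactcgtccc
Uqcr10, chr11:4704295-4704594, minus strand: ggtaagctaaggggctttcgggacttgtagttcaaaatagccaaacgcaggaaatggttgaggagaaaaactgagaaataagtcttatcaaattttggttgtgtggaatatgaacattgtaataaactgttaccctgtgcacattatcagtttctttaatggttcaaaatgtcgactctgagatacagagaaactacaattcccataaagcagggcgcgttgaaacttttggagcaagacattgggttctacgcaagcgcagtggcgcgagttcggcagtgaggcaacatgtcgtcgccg
Of these, the Ndufs8 window holds the ETS-type letters, 15 bases after the start and on the opposite strand. Across the family, 67 of 83 genes had a window, and 17 of them (25.4%) held CCGGAAG against 9.93% of all 27025 genes with a window, while 9 (13.4%) held GCATGCGC against 3.05%. These are matches of letters in a window and describe the sequences alone.

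Ndufv1 was low in the Lrp6Cd stock. On the tested probe set, 1456015_x_at, the signal was 4301, 5020, 5174 and 5734 in Cd-WT and 5420, 4599, 5099 and 7115 in Cd-Het. It was 8676, 9015, 11010 and 8618 in B6, 10900, 10390, 12060 and 6563 in CBA and 9986, 9756, 9678 and 12790 in Lp-WT. All 4 Cd-WT arrays lay below every array of the other controls, and the lowest array outside the stock was CBA replicate 4. The range of the 4 control means was 1.06 on the log2 scale (limma adjusted p = 0.000154; 3.03e-05 after quantile normalization, and 1.49e-06 without CBA replicate 4 and Ct replicate 3). The 5 mutant groups differed in the same gene by up to 0.85 (limma adjusted p = 0.00447), an alternative added after the data were seen; after centring on the array median the gene was not called there.

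A second Ndufv1 probe set, 1415966_a_at, separated the stock completely. Its signals were 3229, 3180, 3342 and 3693 in Cd-WT and 3639, 3151, 3345 and 4359 in Cd-Het, while the arrays of the other 7 groups lay between 5869 and 14110 (limma adjusted p = 3.78e-08 across the controls, all probe sets tested). The third, 1415967_at, did not show it: Cd-WT stood at 8122, 7611, 8144 and 7950 and Cd-Het at 9332, 7721, 8060 and 9659, inside or above the other groups' range (limma adjusted p = 0.402). The difference between the stocks thus holds on 2 of 3 probe sets of the gene and not on the other. Restricted to probe sets whose names do not end in _s_at, _x_at or _a_at, the gene was not called (range 0.57, limma adjusted p = 0.386). Why the probe sets differ was not tested.

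Ndufa10 went the other way and was high in the Lrp6Cd stock. Its signal was 19450, 17270, 19150 and 20310 in Cd-WT and 19270, 17900, 17760 and 19440 in Cd-Het, against 11160, 10270, 12410 and 10320 in B6 and 10320, 10390, 9464 and 8652 in Pax3. Every array of the stock lay above every other array, the highest of which was 12750. The control groups spanned 0.91 (limma adjusted p = 0.00106; 0.000948 after quantile normalization, 0.00306 after centring on the array median and 3.51e-06 without CBA replicate 4 and Ct replicate 3), and the mutant groups 0.94 (limma adjusted p = 0.00105). CBA replicate 4 was the lowest array, at 5686. A second probe set of the gene, 1418068_at, differed less (limma adjusted p = 0.0674 among all probe sets).

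**Figure D1:**
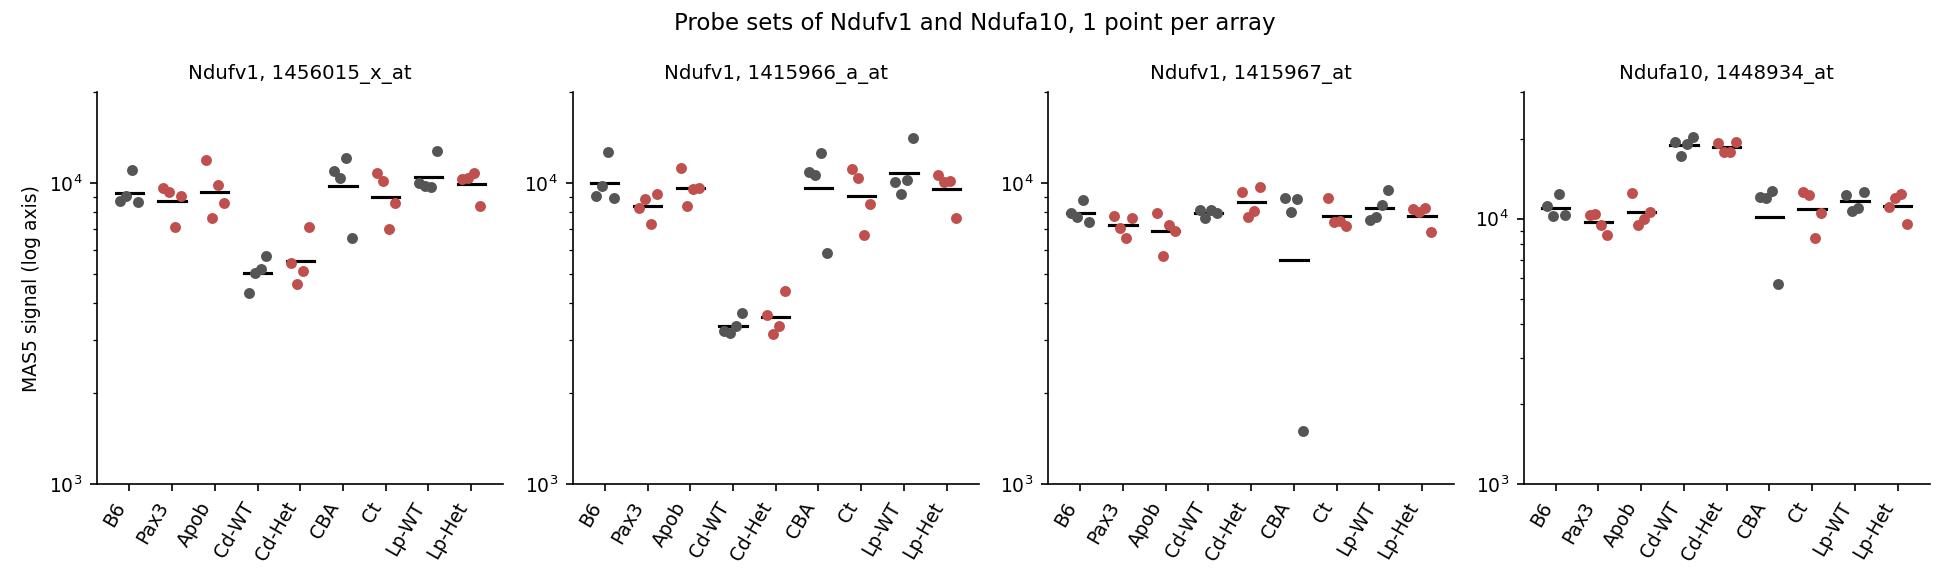
MAS5 signal (log axis) of 3 Ndufv1 probe sets and of the tested Ndufa10 probe set, 1 point per array, with controls in grey, mutants in red and a bar at the mean log2 value of each group of 4. The Lrp6Cd stock, Cd-WT and Cd-Het, is low on 2 Ndufv1 probe sets and not on 1415967_at, and high for Ndufa10, where its arrays read 17270 to 20310 and no other array passes 12750.

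Ndufs8 was high in the Lrp6Cd stock beside B6 and Pax3, at 24780, 23750, 26460 and 24020 in Cd-WT and 26760, 18800, 30390 and 18150 in Cd-Het. B6 read 10720, 12430, 12630 and 13680 and Pax3 16010, 12130, 7849 and 10390, so every array of the stock lay above both of these groups. Lp-WT, at 22530, 16660, 18000 and 21490, lay below Cd-WT and overlapped Cd-Het. Ct read 21170 ± 6210 (mean and SD) and CBA 15490 ± 7551, where CBA replicate 4 stood apart at 4402. The stock thus did not stand apart from every other group. The control F test missed the threshold as deposited (limma adjusted p = 0.0559) and passed it after quantile normalization (0.0487) and without CBA replicate 4 and Ct replicate 3 (0.00531).

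Ndufb6 was low in B6, at 6780, 7637, 8152 and 8310, while arrays of the 7 groups other than B6 and Pax3 read 8098 to 17890. Pax3 read 10910, 10350, 6956 and 7120, on both sides of its control. The control range was 0.82 (limma adjusted p = 0.0426), and the call was lost after median centring (0.0858), with no filter (0.059), with no variance trend (0.0541), in the fit without CBA replicate 4 and Ct replicate 3 (0.0529) and when any 1 of 11 control arrays was left out (each B6 array, Cd-WT 1, 2 and 3, CBA 2 and 4, Lp-WT 1 and 4; 0.0524 to 0.136). Its second probe set, 1434057_at, gave no such difference (0.21, limma adjusted p = 0.817 among probe sets without the shared endings). Leaving out CBA replicate 1 raised the number of called members among the controls from 3 to 6, leaving out CBA replicate 3 raised it to 5, and leaving out B6 replicate 1 lowered it to 2. The shares of all genes called in these fits are not given. Quantile normalization called 8, beside 1470 of all 13188 genes against 1417 as deposited: Atp5c1, Atp5pb, Ndufa10, Ndufa12, Ndufa13, Ndufb6, Ndufs8 and Ndufv1. With every probe set tested, 10 of 156 member probe sets of 8 genes were called, beside 9.61% of all probe sets.

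An F test over the 5 mutant groups, added after the data were seen, called more members, 33 of 80 beside 14.1% of all genes, and it depended on the scaling. As deposited these stood beside 1855 of all 13188 genes. After quantile normalization it called 11, beside 1763 of all genes: Atp5c1, Atp5o, Ndufa10, Ndufa12, Ndufa13, Ndufa2, Ndufs3, Ndufs5, Ndufv1, Uqcr10 and Uqcrq. It called 28 after centring on the array median (beside 1789 of all genes), 11 after centring on bright genes that are no members (beside 1943), and 52 without CBA replicate 4 and Ct replicate 3 (beside 3303). As deposited Ndufb8 (range 0.87, limma adjusted p = 0.026) and Cox4i1 (0.71, 0.0205) were called among the mutant groups and not among the controls (0.345 and 0.893), and neither was called after quantile normalization; the difference between these 2 tests was not itself tested.

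Ndufa12, an accessory complex I subunit, was among those gained by quantile normalization (limma adjusted p = 0.000778, against 0.0661 as deposited). Its tested probe set read 14030, 13380, 16360 and 15670 in B6 and 9498, 8845, 10880 and 9197 in Cd-WT, with 9010, 11510, 10860 and 15220 in CBA. The B6 arrays lay above all Cd-WT arrays. Its probe set 1418814_s_at did not have that order, with 7865 to 9489 in B6 and 12160 to 15040 in CBA.

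Uqcr10, a small subunit of complex III, held the largest difference of any member on a single probe set, although its tested probe set was not called between Ct and CBA or among the controls. These probe sets were chosen after their values were seen. On 1434340_at the signal was 196.8, 154.6, 187.6 and 295.3 in CBA and 2599, 5340, 3435 and 2959 in Ct, and the arrays of the other 7 groups read 982.2 to 4542. All 4 CBA arrays lay below every other array of the series. The Ct minus CBA difference was 3.94 ± 0.33 (SE, 4 arrays a group; limma adjusted p = 1.67e-10 in the fit of all 27022 probe sets past the filter, where 4.52% were called), 3.85 after quantile normalization and 4.11 without CBA replicate 4 and Ct replicate 3. It ranged from 3.73 to 4.10 when each array was left out in turn.

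A second Uqcr10 probe set, 1434341_x_at, gave the same order. It read 734.2, 782.5, 921.7 and 1028 in CBA and 3395, 6918, 3737 and 3738 in Ct, a difference of 2.28 ± 0.26 (SE; limma adjusted p = 3.42e-07). The tested probe set, 1424364_a_at, read 10650, 12310, 12420 and 14120 in CBA and 7688, 16000, 7759 and 8580 in Ct. On it the difference was −0.37 ± 0.21 (SE; limma adjusted p = 0.308), with Ct replicate 2 above and the other 3 Ct arrays below every CBA array. Across the controls the 3 probe sets gave limma adjusted p-values of 7.17e-11, 3.36e-07 and 0.267 in the same order. Among the 5 mutant groups, which do not include CBA, the first 2 were not called (limma adjusted p = 0.188 and 0.106) and the third was (0.0253). No other member gene had a called probe set in Ct minus CBA when all 156 member probe sets past the filter were tested.

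**Figure D2:**
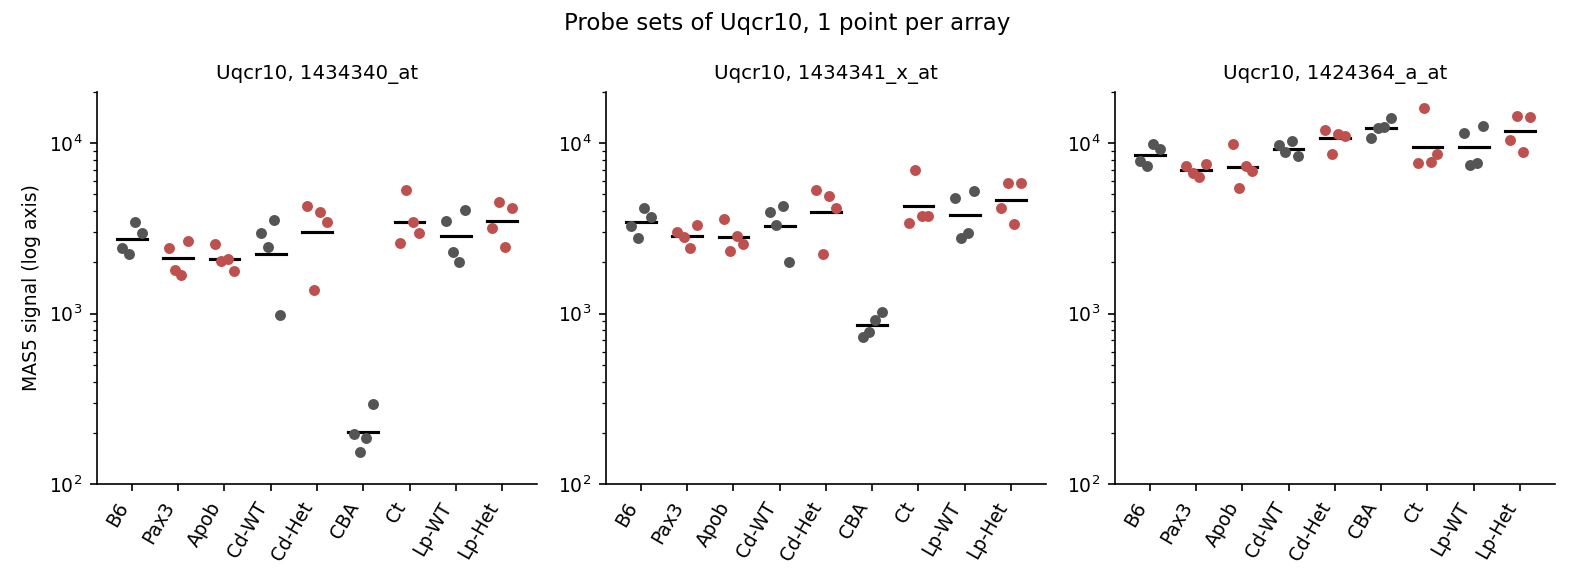
MAS5 signal (log axis) of the 3 Uqcr10 probe sets, 1 point per array, controls in grey and mutants in red, with a bar at the mean log2 value of each group of 4. CBA reads 154.6 to 295.3 on 1434340_at and 734.2 to 1028 on 1434341_x_at, below every other array, and 10650 to 14120 on the tested probe set 1424364_a_at, where it is not low.

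In Pax3 heterozygotes the subunits leaned lower than in B6 as a family, by a small amount that no single member carried past the test. Of 80 members, 74 had a negative difference and 6 a positive one, beside 48.9% of all genes tested with a negative one. Among bright genes that are no members, 26.7% had a positive difference. The members' median was −0.21, beside 0.01 for all genes. No member was called, as was none of the 13188 genes (0%), and 6 members were lower at an unadjusted p below 0.05, beside 2.74% of all genes. In 13 members all 4 Pax3 arrays lay below all 4 B6 arrays, beside 3.18% of all genes. Both counts depended on the scaling. The 13 became 3 after quantile normalization, 5 after centring on bright genes that are no members and 13 after centring on the array median. The 6 became 1, 0 and 3 in the same order. The shares of all genes under these scalings are not given. The median was negative under each scaling, and its size depended on the scaling. After quantile normalization it was −0.055 with 52 of 80 negative, beside −0.027 for all genes. After centring on bright genes that are no members it was −0.076 with 55 negative, beside 0.14 for all genes. After centring on the array median it was −0.25 with 75 negative, beside −0.03 for all genes.

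By complex the medians were −0.21 for complex I, −0.10 for complex II, −0.24 for complex III, −0.21 for complex IV and −0.19 for complex V, and all 9 complex III and all 17 complex V members had negative differences as deposited. Quantile normalization brought them to −0.09, 0.03, −0.05, −0.05 and −0.05. Atp5g3, a gene for the membrane ring subunit c of ATP synthase, had the smallest p. Its signal was 30000, 30000, 25770 and 29770 in Pax3 and 35900, 33730, 38160 and 38780 in B6, and the groups did not overlap. The difference was −0.34 ± 0.15 (SE; limma adjusted p = 0.832), and −0.05 after quantile normalization.

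Cox6a1, the liver form of complex IV subunit VIa, read 33510, 33380, 29400 and 34870 in Pax3 and 43650, 39410, 44620 and 46140 in B6, again without overlap. Its difference was −0.41 ± 0.17 (SE; limma adjusted p = 0.839), and −0.07 after quantile normalization. Ndufa3, a supernumerary complex I subunit, read 19670, 17960, 14410 and 20930 against 23010, 21980, 27130 and 27000, a difference of −0.45 ± 0.20 that was −0.24 after quantile normalization. Cox6c of complex IV (−0.33 ± 0.15) and Ndufs3, a core subunit of complex I (−0.31 ± 0.15; −0.23 after quantile normalization), completed the 5 smallest p-values. In each of these 5 the Pax3 arrays lay below all B6 arrays as deposited.

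Of 5 subunits followed in every comparison, 1 for each complex, Cox4i1 (complex IV) stood at −0.36 ± 0.18, Ndufb8 (complex I) at −0.25 ± 0.25, Atp5a1 (the catalytic-head alpha subunit of complex V) at −0.18 ± 0.22, Uqcrc2 (a complex III core protein) at −0.13 ± 0.20 and Sdhb (the iron-sulfur subunit of complex II) at −0.10 ± 0.19. After quantile normalization the last 3 had positive differences, of 0.01, 0.01 and 0.06. Averaged over the 80 members, the Pax3 arrays stood at −0.05, −0.14, −0.41 and −0.19 relative to the B6 mean. Pax3 replicate 3 was thus the lowest of the 4, and without it the median of the members was −0.13. The summed signal of the 10 hepatocyte markers was also lower, 308600 to 401900 in Pax3 against 439300 to 487800 in B6. The median difference of the 10 markers was −0.36 as deposited and 0.0091 after quantile normalization, and 1248 bright genes that are no members had a median of −0.14. Their part in the family's difference was not tested.

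**Figure D3:**
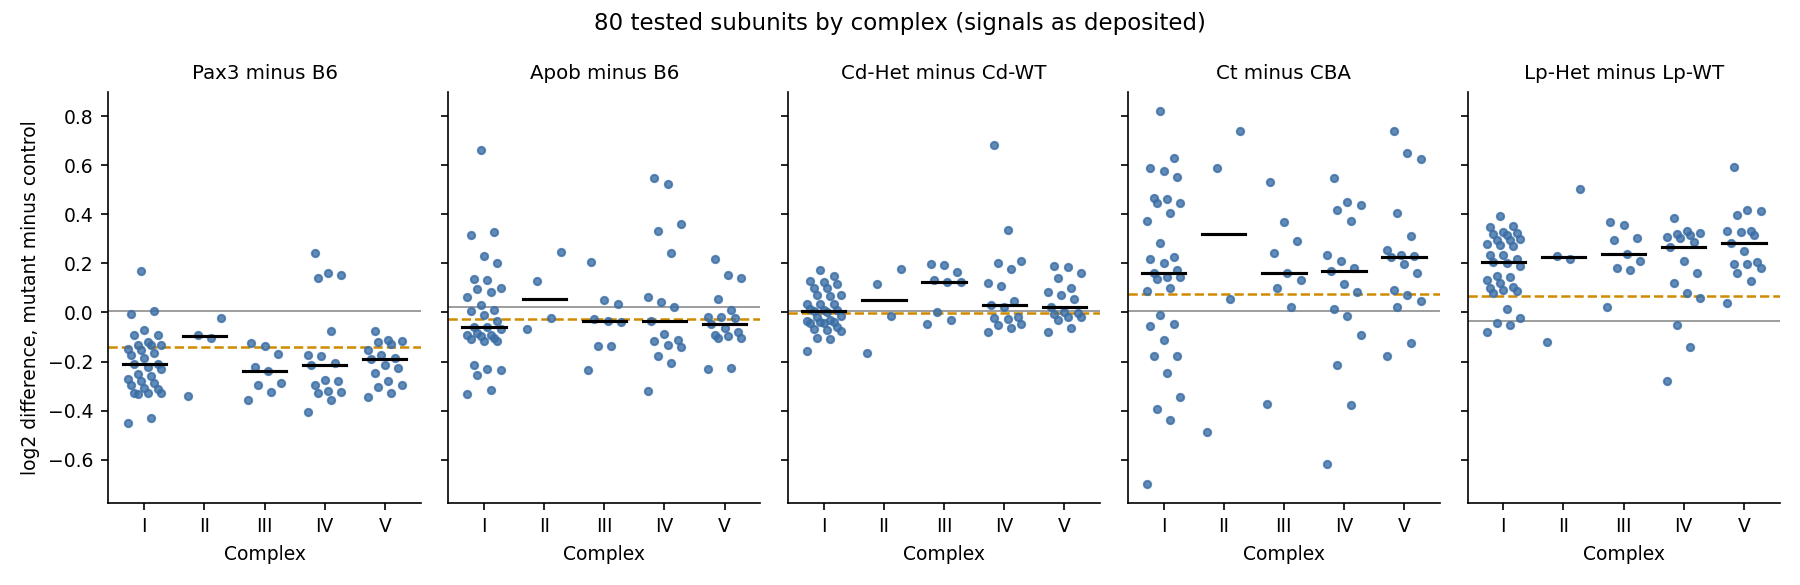
Difference between mutant and control on the scale of log2(signal + 23) for the 80 tested members in each comparison, 1 point per gene, grouped by complex, with a black bar at the median of each complex. The grey line marks the median of all 13188 genes and the dashed line the median of the bright genes that are no members. As deposited, the complex medians lie below 0 in Pax3 (−0.24 to −0.10) and above 0 in Lp-Het (0.21 to 0.28) and Ct (0.16 to 0.32); in Pax3 the complex II median turns to 0.03 after quantile normalization.

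In Apob heterozygotes, set against the same B6 arrays, the family did not lean. Of 80 members 32 had positive and 48 negative differences, with 53.2% of all genes positive, and a median of −0.03 beside 0.02 for all genes. None was called, beside 0.538% of all genes, and 1 was higher at an unadjusted p below 0.05, beside 5.98%. Groups did not overlap in 2 members that were higher and 1 that was lower, beside 5.14% and 4.25% of all genes. The member of smallest p was Ndufb6, at 17890, 10310, 14240 and 8437 in Apob against 6780, 7637, 8152 and 8310 in B6, without overlap. Its difference was 0.66 ± 0.22 (SE; limma adjusted p = 0.195), 0.68 after quantile normalization (0.0541), and it was called with array weights (0.63, 0.029), while its second probe set gave −0.09.

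The next 4 by p were Cox6b2, a testis form of subunit VIb (0.55 ± 0.32), Cox7c (0.33 ± 0.23), Ndufb3 (0.33 ± 0.23) and Cox5a (0.24 ± 0.17). None of them was called. Uqcrc2 stood at 0.21 ± 0.20, Sdhb at 0.13 ± 0.19, Ndufb8 at 0.03 ± 0.25, Atp5a1 at −0.05 ± 0.22 and Cox4i1 at −0.13 ± 0.18. The array means of the members were 0.36, −0.23, 0.06 and −0.19 relative to B6, on both sides of the control. The median moved from −0.17 without Apob replicate 1 to 0.06 without Apob replicate 2, so its sign was not settled. After centring on the array median it was −0.10, with 58 of 80 negative, beside −0.04 for all genes.

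Cd heterozygotes and their wild types differed least. The members' median was 0.02 with 46 of 80 positive, beside 0.00 for all genes and 51.1% of them positive, and no member was called, as was no gene at all (0%). At an unadjusted p below 0.05, 1 member was higher, beside 1.11% of all genes, and the same member was alone in having no overlap, beside 1.68%. It was Cox6b2, a dim probe set that read 147.1, 124, 120.8 and 137.6 in Cd-Het and 96.54, 70.23, 62.95 and 67.59 in Cd-WT, a difference of 0.68 ± 0.32 (SE; limma adjusted p = 1.00). The low reading of Ndufv1 and the high reading of Ndufa10 in this stock were present in both genotypes, as given above. Ndufs8 read above B6 in both genotypes.

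The remaining 4 of smallest p were Ndufa4l2 (0.34 ± 0.26), Ndufs3 (0.17 ± 0.15), Ndufa4 (0.20 ± 0.20) and Uqcr10 (0.20 ± 0.21). Sdhb stood at 0.12, Atp5a1 at 0.08, Cox4i1 at 0.02, Uqcrc2 at −0.03 and Ndufb8 at −0.04. Cd-Het replicate 2 was the lowest of the 4 mutant arrays, at −0.22 in the mean of the members, with the others at 0.18, 0.15 and 0.08. The median was 0.12 without it and −0.02 without Cd-Het replicate 1, and 0.07 with 68 of 80 positive after centring on the array median, beside 0.06 for all genes.

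In Ct against CBA the members spread more widely than in any other comparison, and no member was called as deposited while 6.65% of all genes were. Of 80 members 60 had positive differences, beside 50.7% of all genes and 56.0% of bright genes that are no members. The members' median was 0.17, beside 0.01 for all genes. At an unadjusted p below 0.05, 9 were higher and 4 lower, beside 12.9% and 11.2% of all genes, and 1, Ndufb7, did not overlap, beside 3.35% higher of all genes. The complex medians were 0.16, 0.32, 0.16, 0.17 and 0.22 for complexes I to V. After quantile normalization they were 0.09, 0.23, 0.11, 0.00 and 0.07, and 51 of 80 members were positive.

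Ndufs5, a supernumerary complex I subunit of the intermembrane space side, had the smallest p. It read 3843, 8836, 3415 and 4548 in Ct and 7053, 9043, 9190 and 6324 in CBA, with Ct replicate 2 inside the CBA range and the other 3 below it. The difference was −0.70 ± 0.23 (SE; limma adjusted p = 0.0585), and it was called lower after quantile normalization (−0.70, 0.029), with the stricter filter (0.0492), with array weights (0.00438) after centring on bright genes (−0.78, 0.0159) and without Ct replicate 2 (−0.99, 0.00534). It was not called after centring on the array median (−0.66, 0.131) or without CBA replicate 4 and Ct replicate 3 (−0.64, 0.213). Sdhd, a membrane anchor of complex II, read 10510, 21540, 12370 and 13000 in Ct against 9816, 11640, 11480 and 3547 in CBA. Its difference was 0.74 ± 0.25 (SE; limma adjusted p = 0.0604) and dropped to 0.39 without CBA replicate 4 and Ct replicate 3, and its second probe set gave −0.40.

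Ndufb1 read 414.8, 524, 456.2 and 346.2 in Ct against 155.8, 401.8, 410.9 and 108.2 in CBA, where 2 arrays were low and 2 were level with Ct. Its difference was 0.82 ± 0.29 (SE; limma adjusted p = 0.0715), and 0.47 without the 2 arrays of high GAPDH ratio. Ndufa12 stood at 0.58 ± 0.21 (limma adjusted p = 0.0794; 0.0413 after quantile normalization) and Ndufa3 at 0.55 ± 0.20 (0.0874). On the Ndufa12 probe set without a shared ending the difference was −0.26. Of the subunits followed throughout, Cox4i1 stood at 0.37 ± 0.18, Atp5a1 at 0.31 ± 0.22, Ndufb8 at 0.17 ± 0.25, Uqcrc2 at 0.16 ± 0.20 and Sdhb at 0.05 ± 0.19; Sdhb was −0.05 after quantile normalization, and Atp5a1 was 0.06 without the same 2 arrays.

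Single arrays decided the Ct calls and the size of the median. Ct replicate 2 read 0.66 above the CBA mean over the 80 members, the highest array, while the other Ct arrays stood at −0.09, 0.05 and 0.05, and the median was 0.01 without it. Leaving out 1 array gave up to 4 called members: Atp5e, Sdha, Sdhd and Ndufa7 without Ct replicate 1; Sdhd, Ndufa7, Ndufa3 and Ndufb1 without CBA replicate 2; and 3 without CBA replicate 3 (Sdhd, Ndufa3 and Ndufb1). It gave 2 without CBA replicate 1 (Sdhd and Ndufc1), 1 without Ct replicate 2 (Ndufs5) and 1 without CBA replicate 4 (Ndufa6). For these fits the share of all genes called is not given, so the counts are not read as a change in the members. Without both CBA replicate 4 and Ct replicate 3 the median was 0.15, 63 of 80 were positive, and Ndufa6 alone was called, beside 236 of all genes.

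Markers of Kupffer cells, the resident macrophages of liver, moved with the same comparison: the summed signal of 12 was 18290 to 111500 in Ct against 16780 to 23950 in CBA, and 6 of 12 were called, 0 of them without the 2 arrays of high GAPDH ratio. Markers of exocrine pancreas, 5 of 8 past the filter, summed to 3952 to 7490 against 2183 to 5256. Their part in the subunits' differences was not tested.

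In Lp heterozygotes the members leaned higher, again without a call. Of 80 members 72 had positive differences, beside 45.1% of all genes and 61.6% of bright genes that are no members. The members' median was 0.23, beside −0.03 for all genes, and 0.0303% of all genes were called. At an unadjusted p below 0.05, 3 members were higher, beside 2.67% of all genes, and 5 did not overlap, beside 2.34%. These 2 counts were 1 and 3 after quantile normalization and 2 and 4 after centring on bright genes that are no members. They were 2 and 2 after centring on the array median. The shares of all genes under these scalings are not given. After quantile normalization the median was 0.10 with 67 of 80 positive, and after centring on bright genes that are no members 0.18 with 69 positive. After centring on the array median it was 0.27 with 73 positive, beside 0.01 for all genes. The complex medians were 0.21, 0.22, 0.24, 0.27 and 0.28 for complexes I to V, and every complex III and complex V member was positive as deposited; after quantile normalization the medians were 0.08, 0.13, 0.07, 0.13 and 0.17.

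Atp5g3 again had the smallest p, at 43470, 52700, 37210 and 51900 in Lp-Het against 36330, 31100, 36120 and 36110 in Lp-WT, without overlap. Its difference was 0.40 ± 0.15 (SE; limma adjusted p = 0.535), and 0.17 after quantile normalization. Ndufb11 (0.35 ± 0.17), Sdhd (0.50 ± 0.25), Cox7a2 (0.39 ± 0.19) and Cox6c (0.31 ± 0.15) followed. Sdhd did not overlap, at 14550 ± 2415 (SD, n = 4) in Lp-Het against 10210 ± 1212 in Lp-WT. Ndufb8 stood at 0.30, Cox4i1 at 0.27, Sdhb at 0.23, Uqcrc2 at 0.17 and Atp5a1 at 0.13.

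The members' array means were 0.12, 0.40, −0.02 and 0.35 in Lp-Het relative to Lp-WT, so Lp-Het replicate 3 was level with its control and replicates 2 and 4 were highest. After centring on the array median the 4 arrays stood at 0.22, 0.62, 0.14 and 0.027, so that replicate 4, whose array median was the highest of the 36 (0.41 above their mean), was then the lowest of the 4. The median ranged from 0.18 without Lp-WT replicate 3 to 0.31 without Lp-Het replicate 3. The hepatocyte marker sum was 492000 to 590400 in Lp-Het against 404400 to 471700 in Lp-WT, without overlap. The median difference of the 10 markers was 0.27 as deposited and 0.010 after quantile normalization. Its part in the family's difference was not tested.

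**Figure D4:**
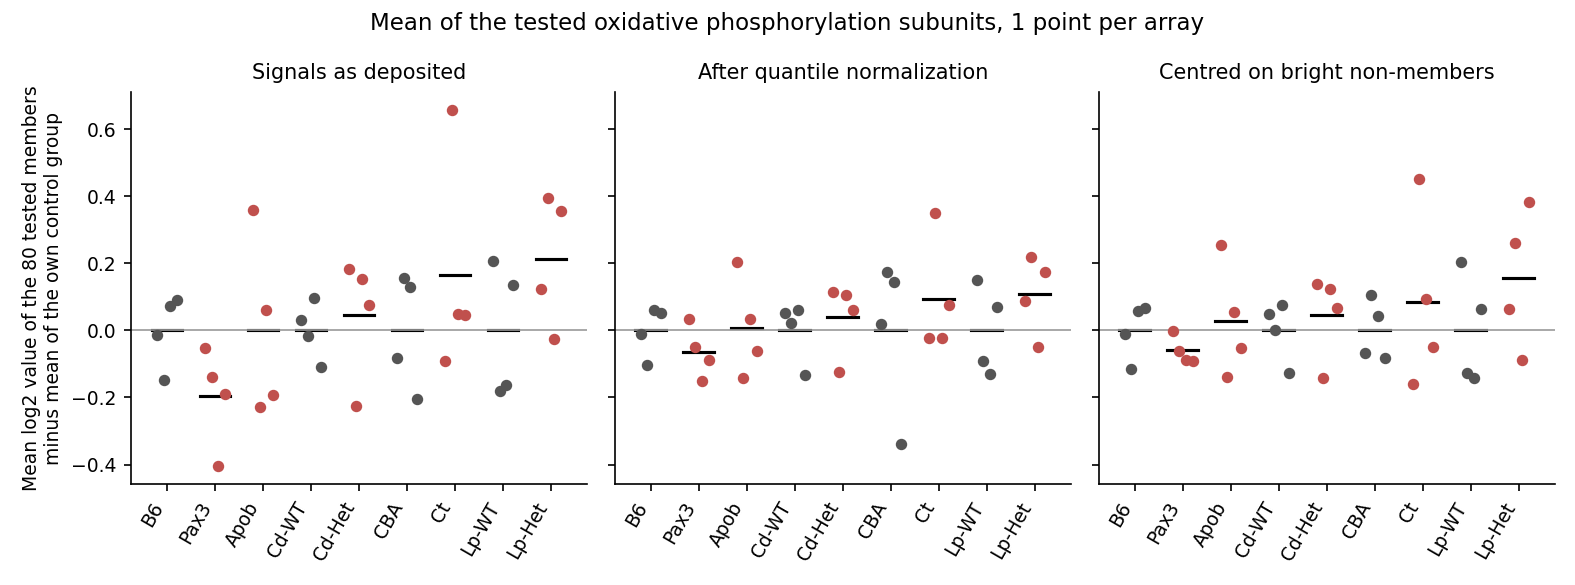
Mean log2 value of the 80 tested members on each array minus the mean of its own control group, for signals as deposited, after quantile normalization and after centring on bright genes that are no members; controls in grey, mutants in red, bars at the mean of 4 arrays. As deposited Pax3 lies between −0.41 and −0.05 and Ct replicate 2 reads 0.66; both stand closer to 0 under the other scalings.

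The 5 mutant effects were not shown to differ from each other in any tested member. The F test called 0 of 80 members, beside 2.46% of all genes, and 6 passed an unadjusted p below 0.05, beside 17% of all genes; the smallest limma adjusted p was 0.170, for Atp5g3. On single probe sets the effects differed for Uqcr10, by 4.31 on 1434340_at (limma adjusted p = 4.73e-07) and 2.57 on 1434341_x_at (0.000296), where CBA is the low group, and these were the only called member probe sets, beside 2.29% of all probe sets. Without Ct replicate 2, 1 member was called, in a fit whose share of all genes is not given.

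Bright genes as a class had differences of their own, and 71 of the 80 members were among them. In the brightest 10% of all tested genes the median difference was −0.15 in Pax3, −0.03 in Apob, −0.00 in Cd-Het, 0.09 in Ct and 0.08 in Lp-Het, each of the same sign as the members' median or near 0. Among bright genes that are no members it was −0.14, −0.03, −0.00, 0.08 and 0.07. The members' medians of −0.21, 0.17 and 0.23 in Pax3, Ct and Lp-Het were larger in size than these. The 10 hepatocyte markers had medians of −0.36, 0.25 and 0.27 there, larger still. In Pax3 the next class below the brightest had a median of only −0.02, so the difference changed steeply with signal. The bright genes were not matched to the members in signal. Whether the members differ from genes of equal signal was thus not tested.

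**Figure D5:**
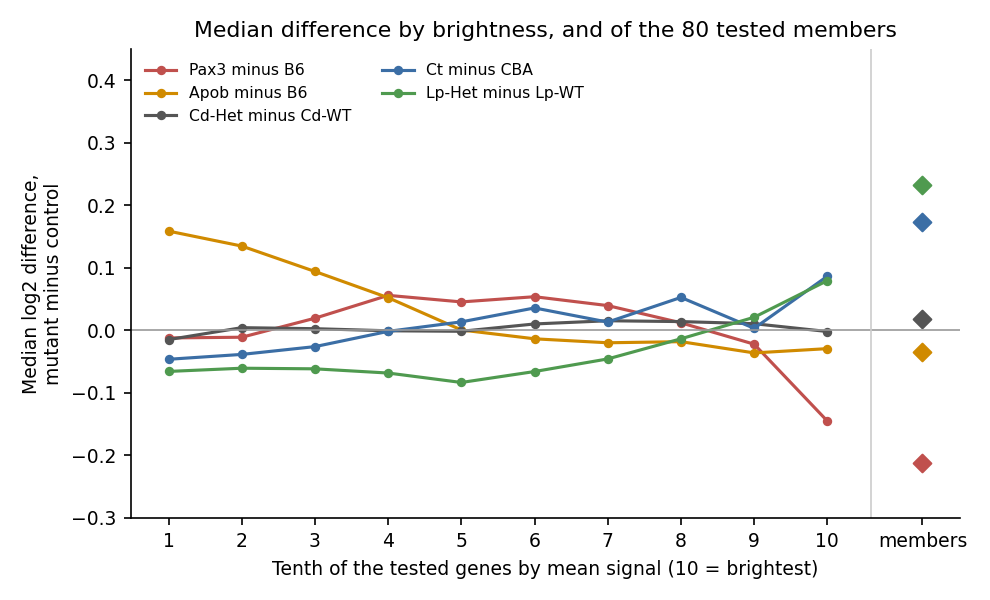
Median difference between mutant and control (log2 scale, signals as deposited) for all tested genes in 10 equal classes of mean signal, dimmest at 1 and brightest at 10, 1 line per comparison, with diamonds for the median of the 80 tested members. In the brightest class Pax3 reads −0.15 and Lp-Het 0.08, and the members read −0.21 and 0.23; after quantile normalization the members read −0.05 and 0.10.

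Within groups the members varied together from array to array. Over the 36 arrays, after each group's mean was taken out, the median Pearson correlation between 2 members was 0.51 over 3160 pairs, against 0.15 between a member and a bright gene that is no member and 0.06 between 2 such bright genes. After quantile normalization these were 0.34, 0.00 and 0.01. The arrays share their scaling and the pairs share arrays, so this is a description only. The members least like the rest by mean correlation were Sdha, the flavoprotein of complex II (−0.39), Ndufs1, the largest complex I core subunit (−0.11), and Cox7c (−0.06). Cox7c was read on a dim probe set, with a mean signal of 145.3. The next lowest, Ndufa4l2 (0.04), Cox6b2 (0.08) and Cox4i2 (0.09), were dim too, with mean signals of 150.3, 97.96 and 86.88. The part of dim signal in these low correlations was not tested. Sdha read 13180, 7579, 5545 and 9373 in Ct against 11570, 10010, 11590 and 14960 in CBA, and on Ct replicate 2, the array with the highest mean of the members, it was below every CBA array.

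Of 4 muscle or lung isoforms of complex IV 3 passed the filter, as did 2 of 3 testis isoforms. Cox4i1, the form found in most tissues, read 19760 to 53680 over the arrays, and Cox4i2, known as the lung form, 6.479 to 221.1. Cox6a2 and Cox7a1, the heart and muscle forms, read 104.3 to 689.3 and 111.7 to 605.6, and Cox8b, the muscle form, was below the filter. Skeletal muscle markers were sparse, with 6 of 13 past the filter and sums of 569.5 to 1177. As deposited, none of these isoforms, nor Cox6a1, Cox7a2, Cox7a2l and Cox8a, was called in the 5 comparisons of mutant and control, among the controls or among the mutant effects. The F test over the 5 mutant groups called Cox4i1 (limma adjusted p = 0.0205), Cox6a1 (0.023) and Cox7a2 (0.023). The differences of Cox7a2l were −0.32, −0.11, 0.18, 0.18 and 0.32 in Pax3, Apob, Cd-Het, Ct and Lp-Het, and those of Cox8a were −0.18, −0.32, 0.11, 0.44 and 0.33, with 0.12 in Ct for Cox8a without CBA replicate 4 and Ct replicate 3.

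Probe sets of the same gene often disagreed. Of 45 genes with more than 1 probe set past the filter, all probe sets shared a sign in 31 for Pax3, 20 for Apob, 17 for Cd-Het, 20 for Ct and 27 for Lp-Het. The same counts over all genes are not given, so these are not read as a trait of the members. For Atp5a1 in Ct the tested probe set gave 0.31 and the others −0.62 and −0.50, and for Uqcrc2 0.16 and −0.61. Of the 80 tested probe sets, 43 have names ending in _s_at, _x_at or _a_at, which on these arrays mark probes shared with other transcripts of the same gene or of other genes.

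Other genes of the pathway were read from lists of the same organelle. Of 41 tested assembly factors, which build the complexes without staying in them, 7 were called in Ct against CBA, beside 6.65% of all genes. Ndufaf6, Sco2 and Sdhaf1 were higher and Cox18, Timmdc1, Cox11 and Cox15 lower, and Ndufaf6 (1.06 ± 0.23, SE; limma adjusted p = 0.0041) alone stayed called without CBA replicate 4 and Ct replicate 3. In the same comparison 6 of 76 mitochondrial ribosomal protein genes were higher and 1 of 18 citric acid cycle genes, Dlat, was lower, and 0 of each remained without those 2 arrays. In the other 4 comparisons no gene of these lists was called.

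Across the controls, 11 of 41 assembly factors were called, beside 10.7% of all genes, led by Cox18, a membrane insertase for complex IV (range 1.07, limma adjusted p = 5.85e-05), and Ndufaf4 (1.08, 0.000331). Of 76 mitochondrial ribosomal protein genes 4 were called, and of 15 regulators of mitochondrial biogenesis 1, Tfb2m, a mitochondrial transcription factor (1.40, 6.52e-05). Coq5 and Slc25a4 were called of 22 carriers and electron carriers, and Idh3a of 18 citric acid cycle genes. Among the 5 mutant effects Cox15 and Cox18 were called of the 41 assembly factors, beside 2.46% of all genes. In Pax3, where the subunits' median was −0.21, the assembly factors had a median of −0.09, the carriers −0.15 and the citric acid cycle genes −0.08, and none was called; after quantile normalization these were −0.13, −0.04 and 0.02. Subunits encoded in mitochondrial DNA were not analysed here.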

How the data were processed

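Livers of 36 female mice were measured on Affymetrix arrays, 4 biological replicates per group by their titles; the p-values measure the spread between these arrays, and their number limits the precision. The deposited table holds intensity values, which per the submitters' processing notes were made with MAS5 (version not given in the sources used here); the files show a trimmed mean of 500 on every array. Probe sets were named from the platform annotation, where 932 probe sets had several symbols and 9160 none; these were not named.

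Signals were taken as log2(signal + 23) without further scaling in the main setting. Probe sets below the 40th percentile of the mean log2 value (6.40, a signal of 61.7) were left out, and each gene kept its brightest probe set. All 9 groups entered 1 fit in limma 3.58.1 (R 4.3.3; lmFit and eBayes with a variance trend), with p-values adjusted by Benjamini-Hochberg over 13188 genes. Comparisons were each mutant against its own control, an F test over the 4 controls and an F test over the 5 mutant effects. The fit was tested on simulated data. Promoter windows came from RefSeq (GRCm38.p6), and figures were drawn with Python 3.11.15 and matplotlib 3.10.9.

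Alternatives were quantile normalization, median centring, offsets of 10 and 50, no filter and a filter at the 60th percentile, no variance trend, array weights, only the arrays of the groups compared, all probe sets, no probe sets with shared endings, the replicate number as a block, and leaving out arrays. Centring on bright genes that are no members, the F test over the 5 mutant groups and the Uqcr10 probe sets one by one were added after the data were seen. Genes were named by rule: called members up to 20 by p, or else the 5 of smallest p; called members of the F tests up to 10; Ndufb8, Sdhb, Uqcrc2, Cox4i1 and Atp5a1 in each comparison; the tissue isoforms of complex IV; and up to 5 called genes per context list. Other names were chosen after their values were seen. The members and lists were chosen with earlier results of these data known. The labels set a control array of the same number beside each mutant array without naming a shared litter or day, and the numbers were not taken as pairs: correlations of same-numbered arrays' deviations ran from −0.14 to 0.20.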

Additional observations from a re-analysis of the deposited data

Results flagged for a closer look

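Over 34 quantities (33 probe sets and the members' mean) in 9 groups of 4 arrays, or 306 groups, 25 single arrays stood far from the other 3, where chance gives about 5%, or 1 in 20 groups. The values are MAS5 signals, and the range of the other 3 arrays is in brackets.

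Cd-Het replicate 2 was low for Ndufb8 (13870; 18770 to 19970), Cox4i1 (24870; 32450 to 34200), Ndufa3 (16810; 23830 to 25120), Cox6c (25680; 29940 to 30580), Ndufb11 (17990; 22160 to 22940) and Cox7a2 (27630; 36110 to 38040). CBA replicate 4, the array of highest GAPDH ratio, was low for Atp5a1 (7644; 22880 to 25730), Ndufa10 (5686; 11940 to 12750), Sdhd (3547; 9816 to 11640) and the Ndufv1 probe set 1415967_at (1497; 7996 to 8912). Ct replicate 2 was high for Cox6c (46040; 26280 to 28350), for the tested Uqcr10 probe set (16000; 7688 to 8580) and for Uqcr10 on 1434341_x_at (6918; 3395 to 3738).

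In the Cd-WT group Ndufb8 was low on replicate 4 (16960; 18710 to 18920), Uqcrc2 was low on replicate 3 (11570; 12840 to 12940), Atp5a1 was high on replicate 1 (24800; 23140 to 23390) and the Ndufa12 probe set 1433513_x_at was high on replicate 3 (9931; 8275 to 8425). In Pax3, Uqcrc2 was high on replicate 1 (11820; 9696 to 9887) and Atp5g3 low on replicate 3 (25770; 29770 to 30000). In Apob, Ndufa4l2 was high on replicate 4 (203.7; 120.7 to 122.9).

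In the Vangl2Lp stock, Sdhb was high on Lp-Het replicate 2 (24150; 18570 to 19050), and Ndufv1 was low on Lp-Het replicate 4 on 1415966_a_at (7668; 10070 to 10570) and on 1415967_at (6850; 7980 to 8230). Ndufv1 was high on Lp-WT replicate 4 on its tested probe set (12790; 9678 to 9986), and Atp5g3 was low on Lp-WT replicate 2 (31100; 36110 to 36330).

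The mutant effects differed between lines for Uqcr10, with a range of 4.31 (log2) on 1434340_at and 2.57 on 1434341_x_at by limma's F test (adjusted p = 4.73e-07 and 0.000296).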

How the results depend on the processing

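The median difference of the members in Pax3 was −0.055 after quantile normalization, −0.076 after centring on bright genes and −0.25 after centring on the array median, against −0.21 as deposited. Called members in Ct against CBA numbered 3 after quantile normalization, 2 with array weights or bright centring, and 1 with the stricter filter, with all probe sets, without shared probe sets or without the 2 arrays of high GAPDH ratio, against 0 as deposited. All genes called in that comparison numbered 877 as deposited, 861 after quantile normalization, 817 after bright centring and 236 without those 2 arrays. In Apob 1 was called with array weights. Among the controls 8 were called after quantile normalization or with all probe sets, 5 with the stricter filter, 18 with array weights and 7 after bright centring, against 3. All genes called there numbered 1417 as deposited, 1470 after quantile normalization and 1233 after bright centring. The 5 mutant groups in their place gave 33, beside 14.1% of all genes. Shares of all genes are not given for the stricter filter, array weights or 1 array left out. Those counts are thus not read as a change in the members. Among the mutant effects 2 were called with array weights and 1 with all probe sets or without shared ones, against 0. Leaving out 1 array gave 0 to 4 called members in Ct, 2 to 6 among the controls and 0 to 1 among the mutant effects, and medians of −0.29 to −0.13 in Pax3, −0.17 to 0.06 in Apob, −0.02 to 0.12 in Cd-Het, 0.01 to 0.26 in Ct and 0.18 to 0.31 in Lp-Het. The causes were not tested. With the replicate number as a block, 0 members were called in the 5 comparisons and 3 among the controls (Ndufv1, Ndufa10 and Ndufs8, with Ndufb6 at a limma adjusted p of 0.0596). Same-numbered deviations correlated from −0.14 to 0.20, and 1 to 3 of 4 mutant arrays per comparison correlated best with their own number. The alternatives gave 1219 values of single genes and single Uqcr10 probe sets, and the counts and medians above were not among them. Of these values 1151 kept their side of the threshold and, outside the F tests, their direction. Another 35 moved, 15 passed the threshold and 18 lost it, and 0 called values reversed. With 4 arrays a group and a median SE of 0.21, no single member was called in the 5 comparisons as deposited.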
